A study of Sus scrofa with 12 samples.

Results

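Expression of 10 genes of the bone morphogenetic protein (BMP) pathway was examined in porcine cells during endothelial induction and in a porcine endothelial cell line. The genes were 4 ligands (BMP2, BMP4, BMP5 and BMP7), 2 receptors (BMPR1A and BMPR2), 3 secreted antagonists (NOG, GREM1 and CHRD) and the pseudoreceptor BAMBI. They were looked up by Ensembl pig gene symbol among the 19681 genes of the expression tables, and all 10 were found. Values are in FPKM, a fragment count scaled to transcript length and to the fragments of the library, so levels of different genes can be set side by side.

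The study followed porcine induced pluripotent stem (iPS) cells through a stepwise endothelial induction, and 12 RNA sequencing libraries are described here. IEC2 cells had been induced for 2 days with the GSK3 inhibitor CHIR99021. IEC4 cells, at day 4, had then received recombinant BMP4, FGF2 and VEGF in place of CHIR99021 from day 2 onward. IEC12 cells, at day 12, had been moved after day 4 to an endothelial growth medium with added VEGF, and were sequenced without sorting for CD31. AOC is an established porcine endothelial cell line, labelled as the end point of differentiation. Each of the 4 groups had 3 libraries, A, B and C, described by the submitters as biological replicates. No clone, passage or culture date was named, so p-values measure only the spread between these libraries.

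BMP ligands are secreted dimers that bring together type I receptors such as BMPR1A and type II receptors such as BMPR2. The type II receptor phosphorylates the type I receptor, which in turn phosphorylates SMAD1, SMAD5 and SMAD9, and these enter the nucleus with SMAD4 and switch on target genes such as the ID family. NOG, GREM1 and CHRD bind ligands outside the cell, while BAMBI resembles a type I receptor without a kinase domain. BMP signals act in mesoderm formation, in haemangioblast development and in blood vessel growth.

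Summed over all genes, a library held 335976 to 457194 FPKM, and the read number behind it is unknown. Mitochondrial genes took 1.95 to 2.19% of this sum in the IEC2 libraries, 4.28 to 7.10% in those of IEC4, 7.77 to 15.0% in those of IEC12 and 5.65 to 7.05% in those of AOC. Of the 3 IEC12 libraries, A had the highest sum and mitochondrial share and C the lowest. Of 9 endothelial markers found, 8 reached a mean FPKM of 1 in AOC, 1 in IEC2 and 0 in IEC4 and IEC12. Their summed FPKM was 3.27 to 5.70 in IEC2, 1.74 to 2.16 in IEC4, 0.415 to 0.559 in IEC12 and 294 to 419 in AOC, and CDH5, the gene of VE-cadherin, was listed at 0 in all 9 IEC libraries. The endothelial label therefore matched its markers in AOC, and IEC12 is described below by its day of induction. The 4 epithelial markers summed to 316 to 822 in IEC4, 13.3 to 21.2 in IEC2, 4.68 to 16.0 in IEC12 and 0 to 0.0509 in AOC. In IEC4 this sum was mostly KRT8, at 300, 435 and 748 FPKM, while EPCAM was at 0.166, 0.208 and 2.21. The 8 mesenchymal and smooth muscle markers summed to 85.2 to 116 in IEC2, 50.8 to 62.8 in IEC4, 62.7 to 80.1 in IEC12 and 9.87 to 20.9 in AOC. In the IEC groups this sum was mostly COL3A1, while ACTA2 had mean FPKM of 0.0979 in IEC2, 3.11 in IEC4, 0.0874 in IEC12 and 7.49 in AOC. The 4 blood markers summed to 9.14 to 12.0, 5.83 to 6.95, 4.17 to 6.12 and 24.6 to 40.0 in the same order, mostly through CD34 in AOC, where PTPRC was listed at 0. Of the pluripotency and mesoderm markers, 2 of 4 and 3 of 4 were found, with sums of at most 6.39 and 0.508. The pluripotency sum was 0 to 0.155 in IEC2, 3.30 to 6.39 in IEC4, 0.248 to 1.52 in IEC12 and 0 to 0.0462 in AOC. In IEC4 it was mostly LIN28A, while POU5F1 and SOX2 were not found. These are bulk samples, in which fewer cells of a type and less RNA per cell cannot be told apart, and the part of these cell types in the BMP values was not tested.

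Among the ligands, BMP5 was the most abundant in every IEC group and BMP4 the most abundant in AOC, while BMP2 stayed low and BMP7 was almost absent from the tables. BMP5, located on chromosome 7 from 25344924 to 25468430 in the RefSeq annotation of Sscrofa11.1, encodes a ligand related to BMP6 and BMP7. Its FPKM was 37.4, 36.5 and 40.7 in IEC2 replicates A, B and C. It was 96.3, 94.6 and 70.2 in IEC4, and 153, 127 and 98.1 in IEC12. The 3 stages did not overlap, although the lowest IEC12 library lay just above the highest IEC4 library. In AOC, BMP5 was listed at 0 in all 3 libraries.

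BMP4 (chromosome 1, 183415989 to 183422888), the ligand that was also supplied in the medium between day 2 and day 4, followed another course. Its FPKM was 7.41, 8.53 and 6.90 in IEC2 and 16.7, 23.8 and 48.3 in IEC4. In IEC12 it was back at 4.66, 4.71 and 5.40, below every IEC2 library. In AOC it was 39.9, 38.6 and 44.6, a range that lay within that of IEC4. The order of group means was thus AOC, IEC4, IEC2 and IEC12, and only AOC and IEC4 overlapped among neighbours.

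The IEC4 value of BMP4 was spread more widely than that of any other group, at 29.6 ± 16.6 FPKM (SD, n = 3). Replicate C stood at 2.38 times the mean of A and B. The same library had 6.09 times the CDH1 level of the mean of A and B, with 42.8 FPKM against 7.51 and 6.54, CDH1 being the epithelial cadherin. BMP5 moved the other way in that library, at 0.736 times the mean of A and B. The part of the epithelial markers in the BMP4 value of replicate C was not tested.

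BMP2 (chromosome 17, 15750487 to 15762982), a close relative of BMP4, reached 1 FPKM in a single library. It was at 0.0158, 0.346 and 0 in IEC2, at 0.406, 0.283 and 1.51 in IEC4, at 0.0702, 0.0541 and 0.0300 in IEC12 and at 0.227, 0.955 and 0.490 in AOC. IEC4 replicate C was again the highest library. IEC12 lay below both IEC4 and AOC without overlap, and the other groups overlapped. BMP7 (chromosome 17, 57567770 to 57676516), which acts in kidney and skeletal development, was listed at 0 in 11 libraries and at 0.0589 in IEC2 replicate B.

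**Figure D1:**
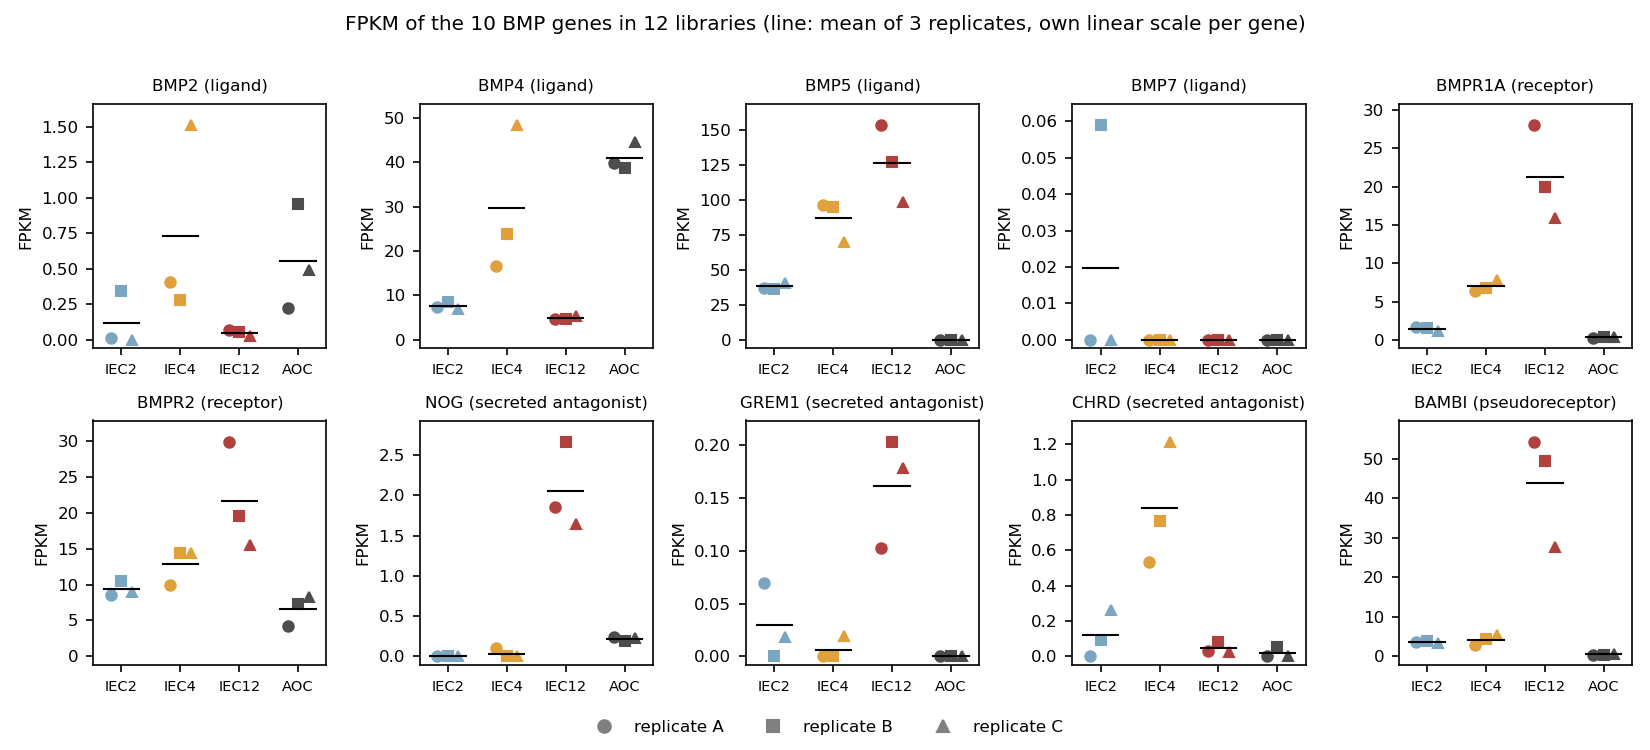
FPKM of the 10 BMP genes in each of the 12 libraries, with 1 panel per gene, its own linear axis, points for replicates A, B and C and a line at the mean of the 3. BMP5, BMPR1A, BMPR2, NOG and BAMBI had their highest group mean in IEC12, BMP4 its highest in AOC and IEC4, and BMP7 was listed at 0 in 11 of 12 libraries.

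Both the ligand sum and its make-up differed between the groups. The summed FPKM of BMP2, BMP4, BMP5, BMP6 and BMP7 was 46.2 ± 1.56 in IEC2, 118 ± 3.21 in IEC4, 131 ± 27.2 in IEC12 and 44.2 ± 2.75 in AOC (SD, n = 3 each). BMP5 took 82.7 ± 2.46% of it in IEC2, 74.1 ± 13.8% in IEC4 and 96.0 ± 1.15% in IEC12. BMP4 took 16.5 ± 2.14%, 25.0 ± 13.5% and 3.91 ± 1.17% in the same stages. In AOC, BMP4 made up 92.7 ± 1.44% and BMP6, which was not among the 10 genes, 5.99 ± 1.01%. Within a library, the BMP5 level was 4.29 to 5.90 times that of BMP4 in IEC2, 1.45 to 5.76 times in IEC4 and 18.2 to 32.9 times in IEC12. The low end in IEC4 was replicate C.

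**Figure D2:**
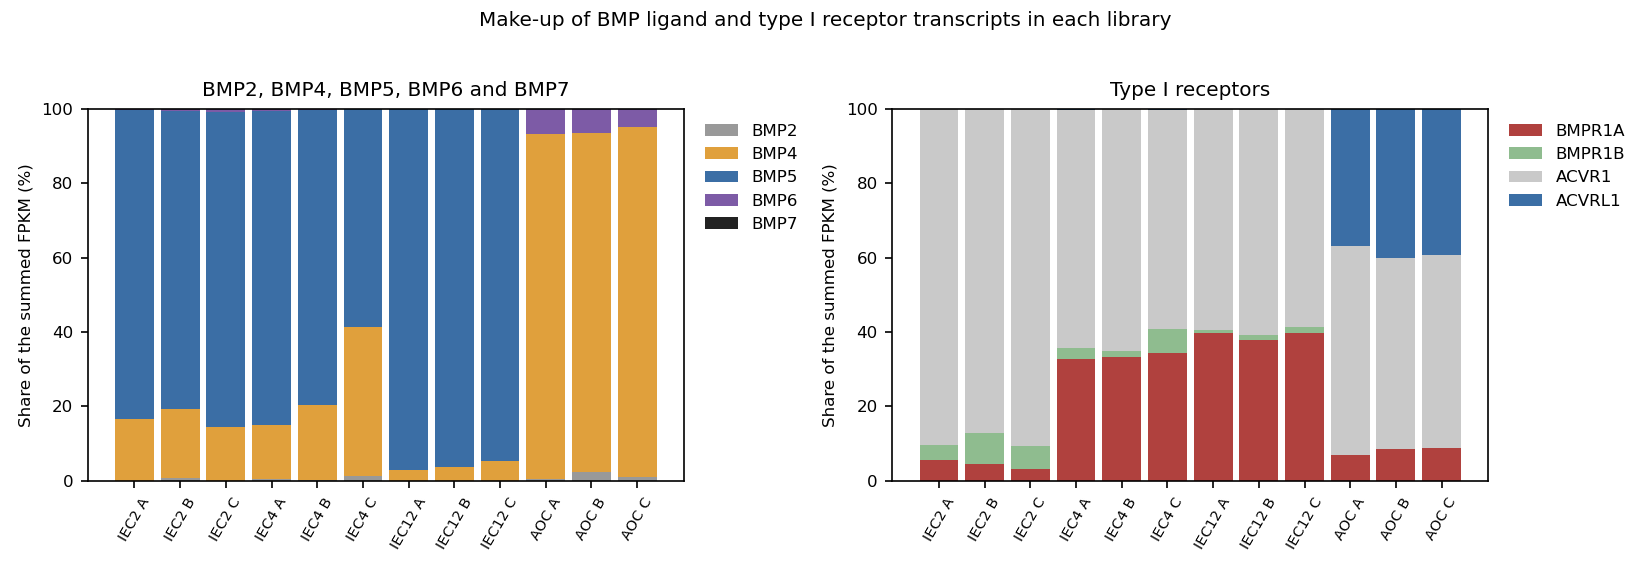
Share in percent of the summed FPKM taken by each of 5 BMP ligands and by each of 4 type I receptors, as stacked bars for each library. BMP5 filled 94.7 to 97.0% of the ligand sum in IEC12 and 0% in AOC, and BMPR1A took 3.17 to 5.53% of the type I receptor sum in IEC2 and 37.9 to 39.6% in IEC12.

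Both receptors were higher at day 12 than at day 2, with mean FPKM 14.5 times as high for BMPR1A and 2.32 times as high for BMPR2. BMPR1A (chromosome 14, 87743270 to 87891790) encodes the type I receptor also called ALK3. Its FPKM was 1.62, 1.58 and 1.22 in IEC2, 6.38, 6.77 and 7.77 in IEC4, and 28.0, 20.0 and 16.0 in IEC12. In AOC it was 0.234, 0.391 and 0.361. All 4 groups were separate, in the order IEC12, IEC4, IEC2 and AOC.

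BMPR2 (chromosome 15, 105971577 to 106132496), the type II receptor whose human mutations cause pulmonary arterial hypertension, had a narrower range. Its FPKM was 8.53, 10.4 and 9.02 in IEC2, 9.95, 14.4 and 14.3 in IEC4, and 29.9, 19.6 and 15.6 in IEC12. In AOC it was 4.27, 7.26 and 8.33. The order of means was IEC12, IEC4, IEC2 and AOC, with IEC4 and IEC2 overlapping. IEC12 replicate A was the highest library for both receptors, and it also had the highest FPKM sum and mitochondrial share of all 12 libraries.

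The receptors were also set against each other within each library. BMPR1A stood at 0.159 ± 0.0282 times BMPR2 in IEC2, 0.551 ± 0.0857 times in IEC4, 0.995 ± 0.0496 times in IEC12 and 0.0507 ± 0.00643 times in AOC (SD, n = 3 each). The groups did not overlap, and in IEC12 the SD of the ratio was small although the libraries differed in both levels. Among the type I receptors, ACVR1 (ALK2) held the largest share in every group, at 89.5 ± 1.97% of the summed FPKM in IEC2, 62.6 ± 3.46% in IEC4, 59.5 ± 1.12% in IEC12 and 53.1 ± 2.68% in AOC. BMPR1A took 4.43 ± 1.19%, 33.5 ± 0.779%, 39.0 ± 1.02% and 8.14 ± 1.03% in the same order. ACVRL1 (ALK1), a type I receptor found mainly in endothelial cells, took 38.7 ± 1.70% in AOC and at most 0.404% in any IEC library. BMPR2 was the main type II receptor throughout, with group means of 66.0 to 77.1% of the summed FPKM of BMPR2, ACVR2A and ACVR2B.

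**Figure D3:**
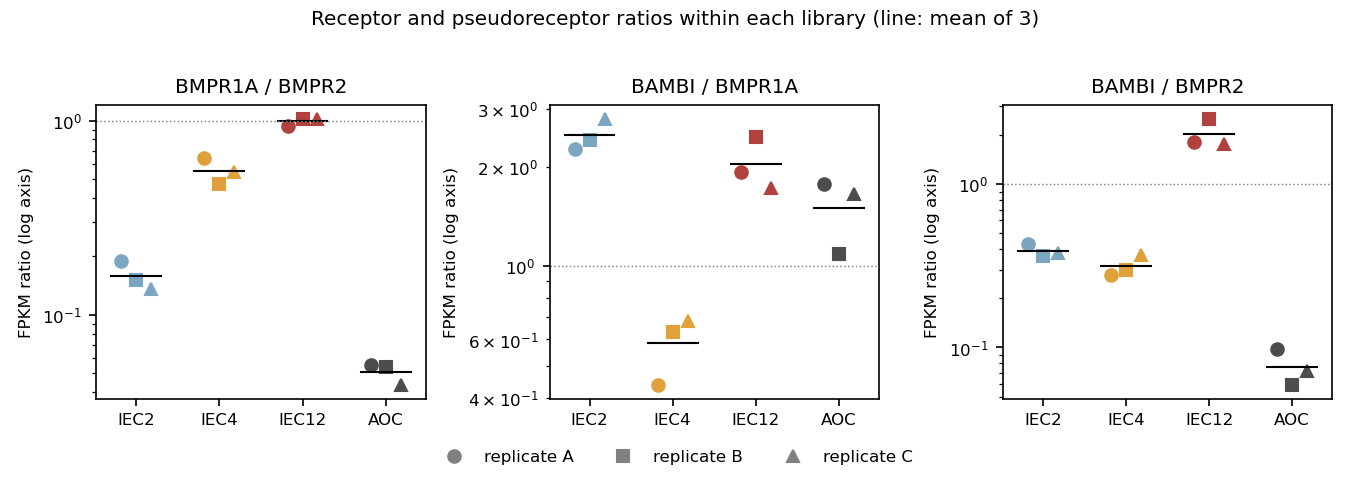
Ratios of FPKM within each library on log axes, for BMPR1A over BMPR2, BAMBI over BMPR1A and BAMBI over BMPR2, with points for replicates and a line at the mean of 3. BMPR1A reached the level of BMPR2 in IEC12 only, and BAMBI was below BMPR1A in IEC4 only.

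The secreted antagonists were low at all stages. NOG (noggin, chromosome 12, 32891321 to 32892206) sequesters BMP2, BMP4 and other ligands. It was listed at 0 in all IEC2 libraries and in IEC4 B and C, with 0.104 FPKM in IEC4 A. In IEC12 it was 1.86, 2.66 and 1.64, and in AOC 0.239, 0.187 and 0.231. IEC12 was the only group above 1 FPKM, AOC lay between IEC12 and IEC4 without overlap, and IEC4 and IEC2 were not separate.

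CHRD (chordin, chromosome 13, 122266632 to 122277513), which binds BMP ligands until it is cut by tolloid proteases, was highest at day 4. Its FPKM was 0, 0.0910 and 0.264 in IEC2, 0.532, 0.765 and 1.21 in IEC4, 0.0316, 0.0792 and 0.0270 in IEC12 and 0, 0.0538 and 0 in AOC. IEC4 lay above the other 3 groups without overlap, and those 3 overlapped with their neighbours. GREM1 (gremlin 1, chromosome 1, 136617041 to 136629293) had its highest values in IEC12, at 0.103, 0.203 and 0.178. It was at 0.0695, 0 and 0.0183 in IEC2, at 0, 0 and 0.0193 in IEC4 and listed at 0 in AOC. These GREM1 levels are very low, and the depth behind them is unknown.

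BAMBI (chromosome 10, 40053368 to 40058590) was highest in IEC12. Its FPKM was 3.66, 3.82 and 3.42 in IEC2 and 2.78, 4.29 and 5.31 in IEC4. It was 54.3, 49.4 and 27.6 in IEC12 and 0.416, 0.424 and 0.596 in AOC. IEC2 and IEC4 overlapped, every IEC12 library was above them, and every AOC library was below them. The mean FPKM of IEC12 was 10.6 times that of IEC4.

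The pseudoreceptor was set against the receptors in the same way. BAMBI stood at 2.50 ± 0.280 times BMPR1A in IEC2, 0.584 ± 0.132 times in IEC4, 2.05 ± 0.383 times in IEC12 and 1.51 ± 0.368 times in AOC (SD, n = 3 each). IEC4 lay below the other groups without overlap. Against BMPR2, BAMBI stood at 0.391 ± 0.0337, 0.316 ± 0.0483, 2.04 ± 0.423 and 0.0759 ± 0.0199 times in the same order, so its mean exceeded that of BMPR2 only in IEC12.

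Changes between groups were tested with limma on log2(FPKM + 1), with Benjamini-Hochberg adjustment over every gene that reached 1 FPKM in 3 or more of the libraries fitted. This scale understates the change of low genes. Of the 10 genes, 6 were tested. BMP2, BMP7, GREM1 and CHRD were under the filter. NOG passed it only through IEC12, and BMP5, BMPR1A and BAMBI only through the IEC libraries. Neither the number of tested genes that differ nor their median log2 difference is therefore support for a change of the pathway. The comparisons share groups of libraries and are not independent of each other. An exact permutation test of 3 libraries against 3 allows no p below 0.1, which every separate pair of groups reached.

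The first comparison asked what changed between day 2 and day 4, when BMP4, FGF2 and VEGF replaced CHIR99021. BMP4, BMP5 and BMPR1A were higher in IEC4, and no tested gene of the 10 was lower. BMP4 rose by 1.70 on the log2 scale (SE 0.313, adjusted p = 0.00250, limma). BMP5 rose by 1.15 (SE 0.182, adjusted p = 0.00107) and BMPR1A by 1.69 (SE 0.210, adjusted p = 0.000274). Without IEC4 replicate C, the log2 difference of BMP4 was 1.29. BMPR2 and BAMBI did not pass the test. Their log2 differences were 0.41 (95% confidence interval -0.12 to 0.95, adjusted p = 0.198) and 0.12 (-0.49 to 0.72, adjusted p = 0.766), and that of BAMBI turned to -0.084 with median-of-ratios scaling. For NOG, listed at 0 in IEC2, no fold change is given, and its adjusted p was 0.842. The 3 genes that rose stand beside a background of 24.8% of 10542 genes higher and 12.5% lower. Of the genes called, 66.5% were higher, and 50.3% with median-of-ratios scaling, which moved the median log2 difference of all genes from 0.20 to -0.00244. The 5 tested genes above 0 in both groups had a median of 1.15, against 0.19 for all such genes.

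The second comparison, of day 12 with day 4, spans the change to endothelial growth medium and the withdrawal of BMP4. BAMBI, BMPR1A and NOG were higher in IEC12 and BMP4 was lower. BAMBI rose by 3.10 on the log2 scale (SE 0.271, adjusted p = 4.77e-05, limma), BMPR1A by 1.45 (SE 0.210, adjusted p = 0.000674) and NOG by 1.55 (SE 0.166, adjusted p = 0.000139). The NOG value depends on the pseudocount and was 4.06 with a pseudocount of 0.1. BMP4 fell by 2.24 (SE 0.313, adjusted p = 0.000560), and by 1.83 without IEC4 replicate C.

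BMP5 and BMPR2 also passed between day 4 and day 12, but narrowly. BMP5 was higher by 0.52 on the log2 scale (SE 0.182, adjusted p = 0.0419, limma) and BMPR2 by 0.68 (SE 0.238, adjusted p = 0.0425). Each lost its call in 5 of 6 fits that left out 1 library, the exception being the fit without IEC12 replicate C. Over all genes tested, 3412 to 4197 were called in those 5 fits, 4812 without IEC12 replicate C and 4660 in the main fit. With libraries scaled to equal totals, neither passed, with log2 differences of 0.31 and 0.47. The 5 genes that rose and the 1 that fell stand beside 17.3% of 10542 genes higher and 26.9% lower. Of the genes called, 39.2% were higher, against 51.8% with median-of-ratios scaling and 25.9% with equal totals. The median log2 difference was 1.06 over the 6 tested genes and -0.15 over all genes, the latter moving to 0.034 with median-of-ratios scaling and to -0.31 with equal totals. The 6 include NOG, which passed the filter only through IEC12, so its rise was favoured by the filter.

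Over the whole induction, from day 2 to day 12, 5 of the 6 tested genes rose. BAMBI rose by 3.22 on the log2 scale (SE 0.271, adjusted p = 2.04e-05, limma), BMPR1A by 3.14 (SE 0.210, adjusted p = 5.09e-06), BMP5 by 1.67 (SE 0.182, adjusted p = 9.73e-05) and BMPR2 by 1.09 (SE 0.238, adjusted p = 0.00503). NOG also passed (adjusted p = 7.54e-05) and was listed at 0 in IEC2. BMP4, which rose and then fell, differed by -0.54 (95% confidence interval -1.24 to 0.16, adjusted p = 0.191) and did not pass, although the 3 IEC12 libraries lay below the 3 IEC2 libraries. With only these 2 groups in the fit its adjusted p was 0.0379. The 5 genes that rose stand beside 24.2% of 10542 genes higher and 19.3% lower. Of the genes called, 55.7% were higher, and 36.8% with equal totals. The 5 tested genes above 0 in both groups had a median log2 difference of 1.67, against 0.026 for all such genes, and all genes tested had -0.18 with equal totals.

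The comparison with AOC set the day 12 cells against an endothelial line. BMP4 was higher in AOC by 2.83 on the log2 scale (SE 0.282, adjusted p = 4.49e-06, limma), with a mean FPKM 8.34 times that of IEC12. BAMBI was lower by 4.87 (SE 0.249, adjusted p = 1.56e-08), BMPR1A by 4.04 (SE 0.191, adjusted p = 8.39e-09), BMPR2 by 1.57 (SE 0.260, adjusted p = 0.000275) and NOG by 1.31 (SE 0.134, adjusted p = 5.43e-06). In mean FPKM, BAMBI was 91.4 times and BMPR1A 64.9 times higher in IEC12 than in AOC. Both ratios rest on AOC means under 1 FPKM, 0.479 for BAMBI and 0.328 for BMPR1A, and the depth behind them is unknown. BMP5 passed as well (adjusted p = 3.91e-11) and is listed at 0 in AOC. The 1 gene that was higher and the 5 that were lower stand beside 22.4% of 11053 genes higher and 36.2% lower. Of the genes called, 38.2% were higher, and 50.5% with median-of-ratios scaling. The 5 tested genes above 0 in both groups had a median log2 difference of -1.57, against -0.19 for all such genes.

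**Figure D4:**
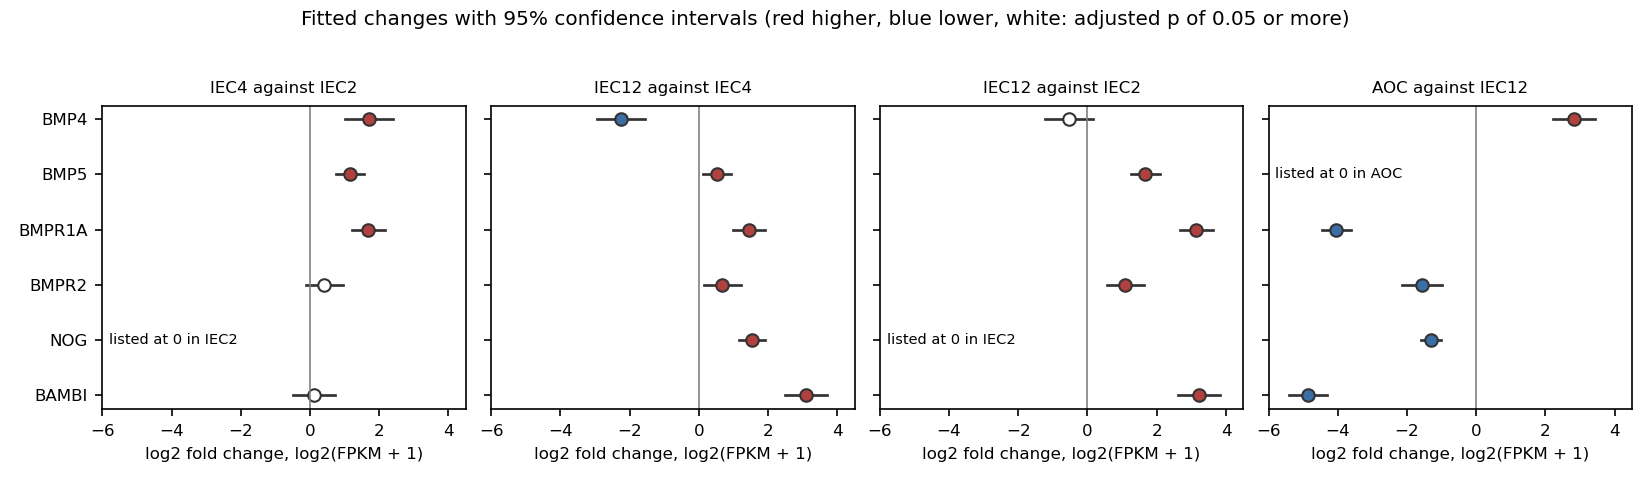
Fitted log2 differences on the log2(FPKM + 1) scale with 95% confidence intervals for the 6 tested genes in 4 comparisons, red for higher, blue for lower and white where the adjusted p was 0.05 or more. BAMBI went from 0.12 between day 2 and day 4, a value that turned to -0.084 with median-of-ratios scaling, to 3.10 between day 4 and day 12, and BMP4 from 1.70 to -2.24.

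The study set limits of a p and an adjusted p below 0.001 and a log2 fold change past 3 in either direction. It used them for iPS cells against AOC. Here they were applied to other comparisons on log2(FPKM + 1), so the counts cannot be set beside those of the study. By these limits, few of the 10 genes were called. None was called between day 2 and day 4, beside a background of 1.18% of all genes tested. BAMBI was called between day 4 and day 12 (background 0.939%), BAMBI and BMPR1A between day 2 and day 12 (background 1.22%), and BMP5, BMPR1A and BAMBI between IEC12 and AOC (background 4.41%).

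The 4 genes under the filter were tested only in a fit without it. CHRD was higher in IEC4 than in IEC2 by 0.71 on the log2 scale (adjusted p = 0.00914, limma over 18415 genes) and lower in IEC12 than in IEC4 by 0.80 (adjusted p = 0.00522). GREM1 was higher in IEC12 than in IEC4 by 0.21 (adjusted p = 0.00892) and than in IEC2 by 0.17 (adjusted p = 0.0171), at levels of at most 0.203 FPKM. It also passed between IEC12 and AOC, where it was listed at 0 (adjusted p = 0.000726, limma over 18889 genes). BMP2 did not pass in any of the 4 comparisons, with adjusted p from 0.0833 to 0.889. BMP7, at 0 in 11 libraries, had adjusted p from 0.499 to 1.

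Other genes of the pathway were taken from a list of 50, of which 47 were found. Between day 2 and day 4, 12 of 25 tested rose and 5 fell, beside 24.8% of all genes tested higher and 12.5% lower. Between day 4 and day 12, 8 rose and 5 fell, beside 17.3% and 26.9%. Between day 2 and day 12, 13 rose and 4 fell, beside 24.2% and 19.3%. In AOC against IEC12, 7 of 27 tested were higher and 15 lower, beside 22.4% and 36.2%. The medians of those above 0 in both groups were 0.60, 0.17, 0.66 and -0.75 in that order, and the second turned to -0.020 over all 25 with equal totals. BMPER, CHRDL1, TLL1, SMAD6, SMAD9 and ID2 were under 1 FPKM in every IEC2 library, so no IEC2 library helped them pass the filter. The same holds for SOST, listed at 0 in IEC2, while BMP6 and ACVRL1 passed only through AOC. Of the genes lower in AOC, SOSTDC1, SOST, SMAD9, TLL2, BMPR1B and VWC2 were under 1 FPKM in every AOC library. No AOC library helped them pass the filter, and VWC2 passed only through IEC2. These counts and medians are therefore not support for a change of the pathway.

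Of 8 textbook target genes found, 3 were tested, ID2, ID3 and HEY1, and 5 were under the filter. Of the 3 tested, ID2 and ID3 changed most when IEC4 and IEC12 were compared with IEC2. ID2 and ID3 encode inhibitors of helix-loop-helix transcription factors. ID3 was at 34.8, 15.7 and 24.9 FPKM in IEC2 and at 559, 512 and 753 in IEC4. It was at 2716, 2678 and 2577 in IEC12 and at 643, 758 and 613 in AOC. Of the ligands, BMP4 had its lowest and BMP5 its highest group mean in IEC12, and the part of either in the ID3 level was not tested. It rose by 4.59 on the log2 scale from day 2 to day 4 (adjusted p = 3.27e-06, limma) and by 2.14 from day 4 to day 12 (adjusted p = 0.000217). ID2 rose by 3.83 by day 4 (adjusted p = 8.51e-06) and by 4.51 by day 12 (adjusted p = 2.53e-06), both against IEC2. ID1, listed at 0 in 9 of 12 libraries, was at most at 0.0142 FPKM. MSX2, under the filter like ID1, ID4, MSX1 and ATOH8, was listed at 0 in IEC2. In IEC4 MSX2 was at 0.776, 2.01 and 4.43 FPKM.

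The other extracellular modulators among the 3 largest changes of a comparison were FST, SOSTDC1 and BMPER. FST encodes follistatin, which binds activins and some BMPs, and it rose by 5.75 on the log2 scale between day 2 and day 4 (adjusted p = 1.58e-06, limma) and fell by 1.93 by day 12 (adjusted p = 0.000276). SOSTDC1, a secreted inhibitor of both BMP and WNT signals, rose by 1.85 between day 4 and day 12 (adjusted p = 0.000992) and by 4.42 between day 2 and day 12 (adjusted p = 4.51e-06). Its FPKM was 64.4, 40.0 and 28.9 in IEC12 and 0.0539, 0 and 0.104 in AOC, a log2 difference of -5.36 (adjusted p = 1.16e-08). SOSTDC1 passed the filter only through the IEC libraries, so its lower level in AOC was favoured by the filter. BMPER, a secreted modulator first described in endothelial precursors, was higher in AOC than in IEC12 by 3.37 (adjusted p = 1.66e-06), at 52.1, 49.8 and 38.4 against 3.95, 4.29 and 2.66 FPKM. ACVR1 was lower in AOC by 3.40 (adjusted p = 2.78e-08). It was at 26.5, 30.0 and 34.9 FPKM in IEC2, 12.5, 13.2 and 13.3 in IEC4, 42.0, 32.1 and 23.6 in IEC12 and 1.89, 2.35 and 2.10 in AOC.

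**Figure D5:**
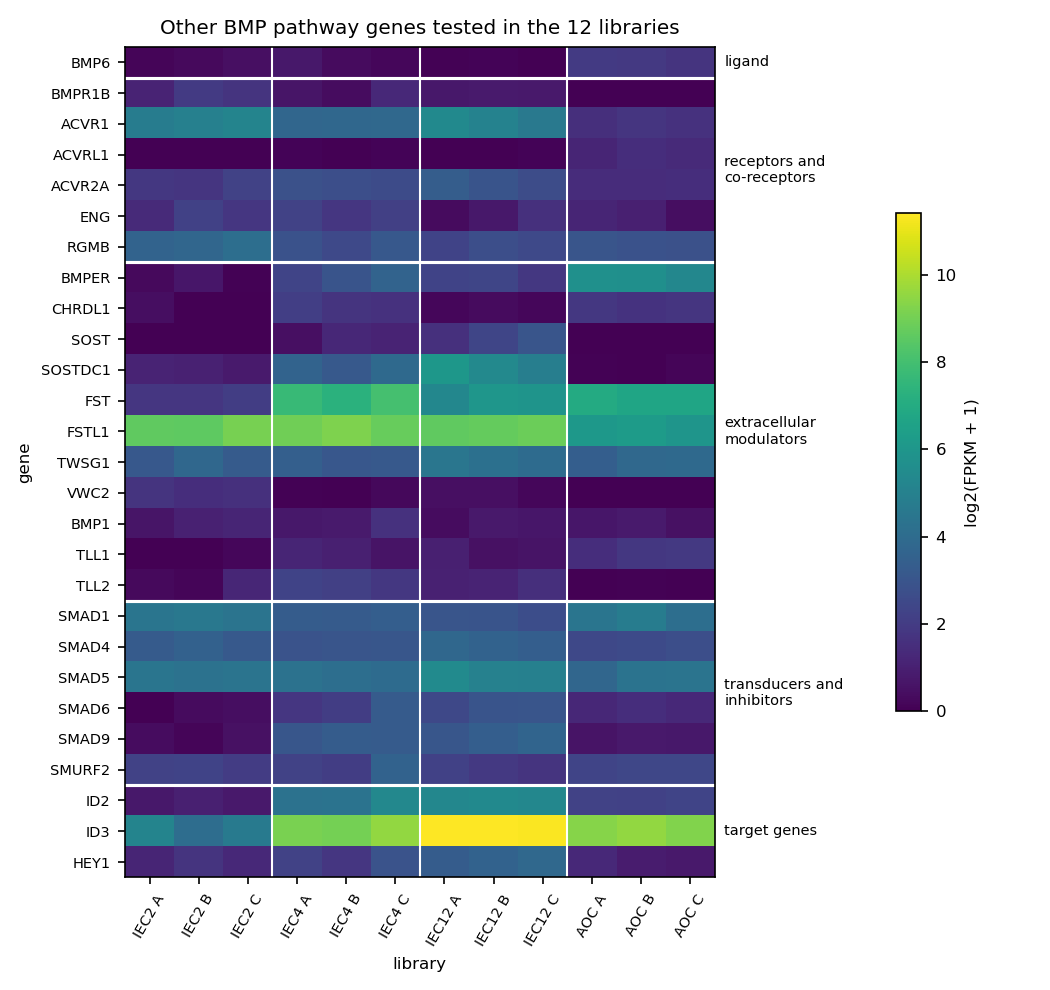
Heat map of log2(FPKM + 1) of the 27 other pathway genes tested in the 12 libraries, ordered by role, with white lines between groups. ID3 was the brightest target gene in every library, SOSTDC1 was bright in IEC12 and dark in AOC, and BMPER was brightest in AOC.

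Of 5 other receptors and co-receptors tested between day 2 and day 4, 1 rose and 3 fell, and of 6 transducers and intracellular inhibitors 2 rose and 1 fell, beside the same 24.8% and 12.5% of all genes tested. The transducer SMAD1 was at 20.3, 22.6 and 20.1 FPKM in IEC2, 9.09, 8.76 and 9.60 in IEC4 and 7.11, 6.82 and 5.46 in IEC12. SMAD9, a transducer of the same class, went from 0.295, 0.110 and 0.412 to 7.24, 8.85 and 8.74 and then to 7.34, 9.63 and 11.6. SMAD5, also of this class, was at 20.5, 18.7 and 19.9 FPKM in IEC2 and 18.8, 16.2 and 14.6 in IEC4. In IEC12 it was at 42.7, 30.9 and 30.5, a rise of 1.02 on the log2 scale from day 4 (adjusted p = 0.00114, limma). SMAD1, SMAD5 and SMAD9 were chosen after their values were seen. In these stages SMAD1 was highest when SMAD9 was lowest, and SMAD5 was highest in IEC12.

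The genes whose patterns were most like those of BMP5, BAMBI, BMPR1A and BMP4 were sought among 9158 tested genes with a symbol, by Pearson's r of log2(FPKM + 1) over the 12 libraries. These libraries form 4 groups, so a high r mostly reflects 4 group levels, and it is given as a description. For BMP5 they were BBX (r = 0.997), TCEAL9 (0.995) and TLCD5 (0.994). For BAMBI they were RRAGC (0.986), STMN2 (0.985) and B3GALNT1 (0.982). For BMPR1A they were SOSTDC1 (0.996), FBXO15 (0.985) and LRRC18 (0.985), and for BMP4 they were TGFB2 (0.986), SETD7 (0.984) and LRATD2 (0.981). TGFB2, a ligand of the TGF-β family, had mean FPKM of 1.65 in IEC2, 12.0 in IEC4, 1.11 in IEC12 and 13.2 in AOC.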

How the data were processed

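FPKM values of 12 libraries, grouped by sample title, were used. Per the labels, libraries came from amplified cDNA (Smart-Seq2, SMARTER). The authors ran Galaxy on the reads and deposited a table of FPKM per library. The submitters' processing notes name TopHat2 2.0.12, Bowtie2 2.2.3, Cufflinks 2.2.1 and the build susScr11. Settings and annotation are not given in the sources used here. The iPS and CD31-sorted libraries are not analysed here. Symbols were held for 13998 of 19681 genes, and coordinates are from NCBI RefSeq (Sscrofa11.1), matched by symbol.

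limma 3.58.1 (R 4.3.3; lmFit, contrasts.fit, eBayes with trend) was run on log2(FPKM + 1), on 10542 genes in the 9 IEC libraries and 11053 in all 12, those reaching 1 FPKM in 3 or more libraries, after a test on simulated data. A pass was an adjusted p under 0.05. Other values and figures were made with Python 3.11.15. Depth is unknown: ratios of low values between libraries gave no single relative depth (largest residual 0.825 on the log2 scale over 66 pairs). A value of 0 can be a failed estimate, although 40 ribosomal protein genes were above 0 throughout.

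The 10 genes, lists and markers were chosen with earlier results of these data known. Named genes are the 10, the 3 largest passing changes per comparison among the other pathway genes, and the 3 genes most like each of the 4 tested genes with the widest range. Other pathway genes and markers with values in the text, such as SMAD1, SMAD9, ID1, BMP6 and ACVRL1, lie outside this rule and were chosen after their values were seen.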

Additional observations from a re-analysis of the deposited data

How the results depend on the processing

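Of the 10 genes, the numbers that passed were 3, 6, 5 and 6 in the comparisons of IEC4 with IEC2, IEC12 with IEC4, IEC12 with IEC2 and AOC with IEC12. By the limits of the study they were 0, 1, 2 and 3, and those of the other pathway genes, 17, 13, 17 and 22, became 3, 0, 5 and 4. The other pathway genes were recounted under each alternative after the values were seen. Leaving out 1 library at a time gave 3, 4 to 6, 5 and 6 passing genes. Of all genes tested, 2987 to 3477, 3412 to 4812, 3362 to 4361 and 5707 to 6535 passed in these fits. The main fits called 3932, 4660, 4592 and 6469 of all genes. For IEC12 against IEC4, 4 of the 10 genes passed in each of 5 fits and 6 in the fit without IEC12 replicate C. Calls over all genes numbered 3412 to 4197 in those 5 fits and 4812 without IEC12 replicate C. BAMBI between IEC4 and IEC2 turned to -0.0844 with median-of-ratios scaling and to -0.0506 without IEC4 replicate C (range -0.0506 to 0.32), and the cause was not tested. BMP5 between IEC12 and IEC4 ranged from 0.37 to 0.69 and BMPR2 from 0.43 to 0.88 with 1 library left out. Both also lost the call without the filter (adjusted p 0.0705 and 0.0741, limma) and with only the groups compared (0.0795 and 0.0777), and BMP5 without the variance trend (0.0585). BMPR2 lost it with the replicate letter as a replicate block (0.0660). The letters were not shown to pair the libraries. Correlations of same-letter deviations ranged from -0.514 to 0.247, and at most 2 of 3 libraries correlated best with their own letter. With the replicate block, 3, 5, 5 and 6 of the 10 genes passed, and the block changed no other call among them. Calls over all genes tested were 3900, 4569, 4496 and 6303 with the block. Of 312 log2 differences of single genes under the alternatives, 291 kept direction and side of the threshold, 18 no longer passed, 1 newly passed and 2 reversed. With a pseudocount of 0.1, NOG had a larger log2 difference between IEC12 and IEC4 than BAMBI (4.06 against 3.36). Depth is unknown, so no counting error can be given for low FPKM values.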

Other observations

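The genes below belong to the wider pathway list and were chosen after their values were seen. RGMB, a membrane co-receptor for BMP2 and BMP4, was at 11.2, 12.7 and 16.2 FPKM in IEC2, 6.36, 4.72 and 7.95 in IEC4, 3.98, 5.74 and 4.80 in IEC12 and 7.16, 6.40 and 6.18 in AOC. It fell by 0.98 on the log2 scale between day 2 and day 4 (adjusted p = 0.00673, limma with Benjamini-Hochberg adjustment). ENG (endoglin), a co-receptor of endothelial cells, was at 1.23, 1.02 and 0.361 FPKM in AOC and at 3.83, 2.46 and 3.48 in IEC4, and it fell by 1.18 between day 4 and day 12 (adjusted p = 0.0168). The AOC and IEC12 values of ENG overlapped.

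TLL1 and TLL2 encode tolloid-like proteases. TLL2 was at 3.87, 3.51 and 2.58 FPKM in IEC4 and at 0.222, 0.124 and 1.34 in IEC2. It rose by 1.54 on the log2 scale between day 2 and day 4 (adjusted p = 0.00288, limma) and fell by 0.86 by day 12 (adjusted p = 0.0373). TLL1 was highest in AOC, at 1.83, 2.62 and 2.72 FPKM, and rose by 0.86 between day 2 and day 4 (adjusted p = 0.00945). SMAD6, an intracellular inhibitor of BMP signals, was at 0, 0.258 and 0.357 FPKM in IEC2 and at 2.46, 3.15 and 8.63 in IEC4, a rise of 2.11 on the log2 scale (adjusted p = 0.00151). IEC4 replicate C was at 3.08 times the mean of A and B for SMAD6, as it was at 2.38 times for BMP4.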
